A study of Mus musculus with 93 samples.

Results

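Mef2a, Mef2b, Mef2c and Mef2d, Srf, Myocd and the genes Mkl1 and Mkl2 encode transcription factors and coactivators of muscle and cytoskeletal genes. These 8 genes were chosen by name from the 24514 gene symbols of the count table, and their RNA was followed across all 93 libraries. Each library was made from 10 cells sorted from mouse embryos or from precardiac spheroids, which are aggregates of embryonic stem cells driven towards heart progenitors. All cells came from animals or stem cells that carried Hcn4-GFP, Tbx1-Cre and the Cre-dependent red reporter Ai9. GFP+ cells expressed Hcn4-GFP, a reporter of the first heart field, and were sampled in 5 embryo and 38 spheroid libraries. RFP+ cells had been labelled through Tbx1-Cre, which marks cells of the second heart field and their descendants, and were sampled in 4 embryo and 46 spheroid libraries. The sample titles give embryonic day 8.5 for the embryos while the extraction protocol names E7.75, and spheroids, made from stem cells derived from blastocysts of such mice, were taken on day 5.5 of differentiation. The labels give a plate well for each library and do not tie wells to embryos, litters or differentiations. The p-values therefore measure only the spread between libraries, which may be technical.

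Mef2 proteins bind A/T-rich sites in muscle genes, form dimers with each other and are held inactive by class II histone deacetylases. Srf, the serum response factor, binds CArG boxes and is expressed in nearly all cells. Its choice of targets depends on partners: myocardin (Myocd), restricted to heart and smooth muscle, or the actin-regulated coactivators encoded by Mkl1 and Mkl2, now also named Mrtfa and Mrtfb, turn on contractile genes, while Elk proteins turn on early response genes. Mef2c and Myocd are early cardiac genes, and Mef2c is also expressed in the second heart field and in endothelium.

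The promoters of the members were read from RefSeq (GRCm38.p6) for the boxes that the 2 families bind, because these factors can act on each other's genes. In the 250 bases before the start, 12 windows of 7 members were held, and the boxes were searched on both strands. No window was held for Myocd, so nothing is said of its promoter. A CArG box (CC and GG around A or T bases) was found in 1.47% of 32851 promoters and a consensus MEF2 box in 2.92%. Srf, chr17:46556163-46556412 on the minus strand, had CArG boxes 82 and 62 bases before its start, and no other member window had any. A MEF2 box stood 165 bases before start 3 of Mkl2, chr16:13358171-13358420 on the plus strand, and in no other member window. The window before start 1 of Mef2c, chr13:83503784-83504033 on the plus strand, is shown because Mef2c varied most among the Mef2 genes, and it holds neither box. Capitals mark the boxes, and each sequence runs 5′ to 3′ towards its start.
Srf: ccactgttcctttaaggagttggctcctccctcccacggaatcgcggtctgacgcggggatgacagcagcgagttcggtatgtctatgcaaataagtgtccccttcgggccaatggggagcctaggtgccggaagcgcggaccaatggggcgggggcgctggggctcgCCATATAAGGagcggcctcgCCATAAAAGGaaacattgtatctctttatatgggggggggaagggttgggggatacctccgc
Mkl2, start 3: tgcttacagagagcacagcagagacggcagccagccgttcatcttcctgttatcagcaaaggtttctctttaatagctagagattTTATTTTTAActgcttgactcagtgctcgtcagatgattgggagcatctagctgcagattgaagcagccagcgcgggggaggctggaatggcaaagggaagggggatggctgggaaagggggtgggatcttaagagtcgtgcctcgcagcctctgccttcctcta
Mef2c, start 1: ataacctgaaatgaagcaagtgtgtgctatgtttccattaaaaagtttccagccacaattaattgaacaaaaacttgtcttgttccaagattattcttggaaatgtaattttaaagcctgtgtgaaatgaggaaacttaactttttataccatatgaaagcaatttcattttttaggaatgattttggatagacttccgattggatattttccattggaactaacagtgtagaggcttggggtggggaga

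Total counts ran from 712732 to 2525460 in embryo GFP+ libraries and from 1246546 to 1479957 in embryo RFP+ libraries. In spheroids they ran from 6288 to 4371849 in GFP+ and from 445071 to 5658882 in RFP+ libraries. Between 6189 and 8302 genes were detected in embryo GFP+ libraries, against at least 10263 in every embryo RFP+ library. The spheroid GFP+ library of well C9, with 6288 counts, was kept in the main comparisons and left out of shares and correlations. It alone had no count of Mef2a, Mef2d or Srf among GFP+ wells, and ranges are given without it where it sets an end. The spheroid RFP+ libraries came from plate columns 1 to 6 and the GFP+ libraries from columns 7 to 11, and an effect of column cannot be told apart from one of population. Within 7 plate rows, the neighbouring RFP+ wells in columns 3 and 4 were closer to each other (r of 0.976 to 0.994) than any of 1028 other pairs, yet still differed by more than sampling noise, and they were counted separately. Levels are given as CPM, counts per 1e6 counts after TMM scaling, and differences as log2 fold changes from edgeR with their standard error (SE). A gene was called at an adjusted p under 0.1, the study's threshold. In pools of sorted cells, fewer expressing cells and less RNA per cell cannot be told apart.

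**Figure D1:**
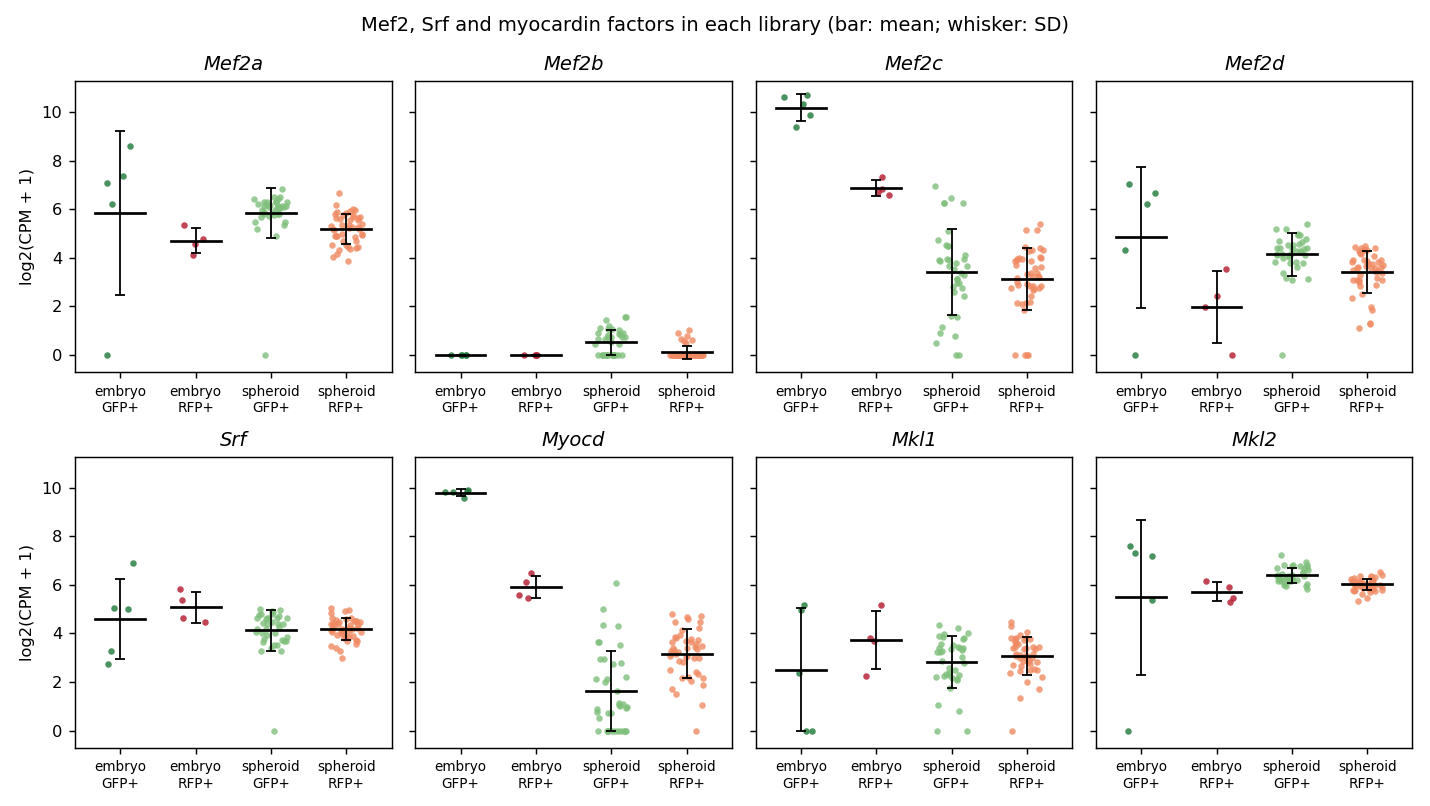
Level of each of the 8 genes in every library, as log2(CPM + 1) on the vertical axis, in 5 embryo GFP+, 4 embryo RFP+, 38 spheroid GFP+ and 46 spheroid RFP+ libraries. Points are libraries, bars means and whiskers SD. Mef2c and Myocd are highest in embryo GFP+ libraries (means of 1225 and 893 CPM), while group means of Srf lie between 17.8 and 39.04 CPM.

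Mef2c was the leading Mef2 gene of the embryo libraries. It was counted at 1560, 672, 937, 1662 and 1293 CPM in the embryo GFP+ libraries A12, B12, C12, D12 and E12. In the embryo RFP+ libraries F12, G11, G12 and H11 it stood at 113, 95.8, 159 and 104 CPM. The lowest GFP+ library was above the highest RFP+ library, and the means differed 10.4-fold. Mef2c (ENSMUSG00000005583.16, chr13:83504034-83667080) was lower in RFP+ cells by edgeR (log2 fold change -3.43, SE 0.32, adjusted p 4.1e-05), and the exact two-sided permutation test gave p = 0.0159, the smallest that 5 against 4 libraries allow. The same fit called 10.1% of the 8503 genes tested (6.21% higher and 3.88% lower in RFP+ cells), and 2 of the 7 members it tested, both lower in RFP+ cells.

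In spheroids Mef2c was much lower. The lowest, median and highest values were 0, 11.1 and 124 CPM in GFP+ wells and 0, 8.50 and 40.5 CPM in RFP+ wells. The groups overlapped, and only the upper tail stood apart, with 5 of 38 GFP+ and 0 of 46 RFP+ wells above 50 CPM. EdgeR, which models the mean, called Mef2c lower in RFP+ wells (log2 fold change -0.98, SE 0.31, adjusted p 0.00306), whereas the difference of mean log2 CPM was -0.29 with a permutation p of 0.376. In this comparison 77.9% of all genes tested were called (37.8% higher and 40.1% lower in RFP+ wells), and 5 of 7 members, 1 higher and 4 lower.

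Between embryo and spheroid, the difference in Mef2c was seen in both populations without overlap. Embryo GFP+ libraries had 60.5 times the mean CPM of spheroid GFP+ wells (log2 fold change 5.69, SE 0.48, edgeR adjusted p 1.3e-14; exact permutation p = 2.08e-06). Embryo RFP+ libraries had 10.9 times that of spheroid RFP+ wells (3.44, SE 0.38, edgeR adjusted p 5.6e-11; exact permutation p = 8.68e-06). Both permutation p-values are the smallest these group sizes allow. In GFP+ cells the fit called 68% of genes (19.7% higher and 48.3% lower in embryos) and 5 of 7 members, all higher. In RFP+ cells it called 42.6% of genes (20.1% higher and 22.5% lower in embryos) and 5 of 7 members, 4 of them higher. The median of all genes was -0.67 in GFP+ cells, against which the members' changes stand, and -0.04 in RFP+ cells. These comparisons share libraries with those above, and embryo and spheroid also differ in age, tissue and plate column.

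Mef2a and Mef2d, the more widely expressed Mef2 genes, varied greatly between embryo GFP+ libraries. Mef2a was counted at 0, 73.6, 384, 165 and 135 CPM in A12 to E12, and at 16.2, 22.5, 39.3 and 26.7 CPM in the RFP+ libraries F12, G11, G12 and H11. Mef2d was counted at 99.4, 19.2, 73.4, 0 and 128 CPM in the GFP+ libraries, and at 2.95, 10.6, 0 and 4.32 CPM in the RFP+ libraries. In each gene 4 GFP+ libraries lay above every RFP+ library and 1 had no count, so that the groups overlapped. Neither passed the test (Mef2a -2.62, SE 1.19, edgeR adjusted p 0.291; Mef2d -3.88, SE 1.79, edgeR adjusted p 0.306). The exact permutation p was 0.556 for Mef2a and 0.111 for Mef2d. Each gene was called in only 1 of 14 alternatives. Mef2a was called without library A12, which lacked Mef2a counts (-2.95, edgeR adjusted p 0.0175), and Mef2d with DESeq2 (adjusted p 0.0435).

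In spheroids both genes were lower in RFP+ wells, with overlap. Mef2a had a median of 65.9 CPM in GFP+ wells (28.95 to 112 without C9) and 36.6 CPM in RFP+ wells (13.7 to 100.1), a log2 fold change of -0.80 (SE 0.11, edgeR adjusted p 4.4e-10). Mef2d had a median of 17.9 CPM in GFP+ wells (7.54 to 40.5 without C9) and 11.1 CPM in RFP+ wells (1.14 to 21.1), a log2 fold change of -0.85 (SE 0.16, edgeR adjusted p 1.1e-06). The permutation test gave p = 1.0e-04 for Mef2a and 8.0e-05 for Mef2d. The 2 genes did not move together from well to well, with r of 0.02 over 37 GFP+ wells and 0.17 over 46 RFP+ wells. For both, every plate column of GFP+ wells had a higher median than every column of RFP+ wells (Mef2a 52.8 to 74.8 against 25.0 to 46.02 CPM).

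Against spheroid GFP+ wells, edgeR called Mef2a (1.06, SE 0.32, adjusted p 0.00408) and Mef2d (1.53, SE 0.38, adjusted p 0.000523) higher in embryo GFP+ libraries. The exact permutation p was 0.705 for Mef2a and 0.169 for Mef2d, and limma voom with weights per group gave the opposite sign (-0.30 and -0.88, neither called). Mef2a was no longer called without library C12 (0.41, adjusted p 0.298), whereas Mef2d was called in 10 of 11 alternatives, with each embryo library left out among them. In RFP+ cells Mef2d was lower in embryos (-1.27, SE 0.53, edgeR adjusted p 0.0543; exact permutation p = 0.0160), a call that was lost without F12, G12 or H11, and Mef2a was not called (-0.55, SE 0.32, edgeR adjusted p 0.183).

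Mef2b, the smallest of the family in these data, reached 48 counts over all libraries. It had no count in any of the 9 embryo libraries, which allows up to 0.405 CPM over the GFP+ and 0.539 CPM over the RFP+ libraries at 3 counts, for counting error only. In spheroids it was counted in 22 of 38 GFP+ wells (mean 0.536 ± 0.576 CPM, SD) and in 7 of 46 RFP+ wells (0.101 ± 0.254 CPM), and the permutation test gave p = 2.0e-05, the smallest 100000 resamples allow. Mef2b did not pass the filter on low counts in any comparison. Without the filter edgeR called it lower in RFP+ than in GFP+ spheroid wells (-1.79, adjusted p 6.4e-05) and lower in embryo than in spheroid GFP+ cells (adjusted p 0.0134), where DESeq2 did not call it (adjusted p 0.245). Its exons share 62 bases with Borcs8 on the same strand, a gene of 6526 counts, so that the source of these few reads is uncertain. Mef2a shares 302 exonic bases with Lysmd4 and Mef2d 531 with 1700113A16Rik, both on the other strand, and a strand setting for the counting is not given in the sources used here.

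Srf itself differed little between the populations. It was counted at 118, 5.66, 8.71, 31.1 and 31.8 CPM in embryo GFP+ libraries A12 to E12, and at 23.6, 40.1, 21.4 and 55.5 CPM in the RFP+ libraries. The GFP+ values spread around the RFP+ values on both sides. The log2 fold change was -0.17 with an SE of 1.19 (edgeR adjusted p 0.988), an error that leaves room for changes of several-fold either way. In spheroids, where the error was smaller, the lowest, median and highest values were 8.55, 19.7 and 30.7 CPM in the GFP+ wells other than C9 and 6.86, 17.2 and 32.5 CPM in RFP+ wells (-0.13, SE 0.11, edgeR adjusted p 0.290; permutation p = 0.767).

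Srf was higher in embryo than in spheroid RFP+ cells (0.99, SE 0.24, edgeR adjusted p 0.000802; exact permutation p = 0.00139). In GFP+ cells edgeR gave 0.84 (SE 0.34, adjusted p 0.0276), but this call depended on library A12. Without it the log2 fold change was -0.07 (adjusted p 0.876), limma voom gave -0.01, and the exact permutation p was 0.247. Srf lies at chr17:46548329-46556175 and shares no exonic base with another annotated gene.

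Myocd, which encodes the cardiac and smooth muscle coactivator of Srf, was the most uniform member in embryo GFP+ cells. It was counted at 953, 757, 914, 912 and 927 CPM in libraries A12 to E12, and at 87.7, 67.6, 47.0 and 43.2 CPM in the RFP+ libraries F12, G11, G12 and H11. The groups did not overlap, and the GFP+ mean of 893 ± 77.6 CPM (SD, n = 5) was 14.5 times the RFP+ mean of 61.4 ± 20.5 CPM (SD, n = 4). Myocd (ENSMUSG00000020542.18, chr11:65176561-65269989) was lower in RFP+ cells (-3.91, SE 0.30, edgeR adjusted p 1.2e-05), and the exact permutation test again gave its smallest p of 0.0159. Of the 8503 genes tested Myocd ranked 6 by p and Mef2c 17.

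In spheroids the direction was the other one. Myocd had a lowest, median and highest value of 0, 1.04 and 66.8 CPM in GFP+ wells, and 0, 8.80 and 26.7 CPM in RFP+ wells. It was detected in 45 of 46 RFP+ wells and in 27 of 38 GFP+ wells, yet the highest values were in GFP+ wells B11 and B9 (66.8 and 31.3 CPM). EdgeR called Myocd higher in RFP+ wells (0.70, SE 0.35, adjusted p 0.0622), a value that was not under 0.05. The log2 fold change was 1.11 with plate row as a covariate (edgeR adjusted p 0.00292) and 1.99 with limma voom (adjusted p 3.5e-06), and the mean of log2 CPM differed by 1.46 with a permutation p of 2.0e-05, the smallest 100000 resamples allow. The column medians ran from 1.00 to 3.13 CPM in GFP+ and from 6.24 to 11.4 CPM in RFP+ plate columns.

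Embryo libraries exceeded spheroid libraries in Myocd without overlap in either population. The ratio of means was 155 in GFP+ cells (7.01, SE 0.55, edgeR adjusted p 1.2e-15; exact permutation p = 2.08e-06) and 6.14 in RFP+ cells (2.60, SE 0.35, edgeR adjusted p 1.2e-08; exact permutation p = 8.68e-06).

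**Figure D2:**
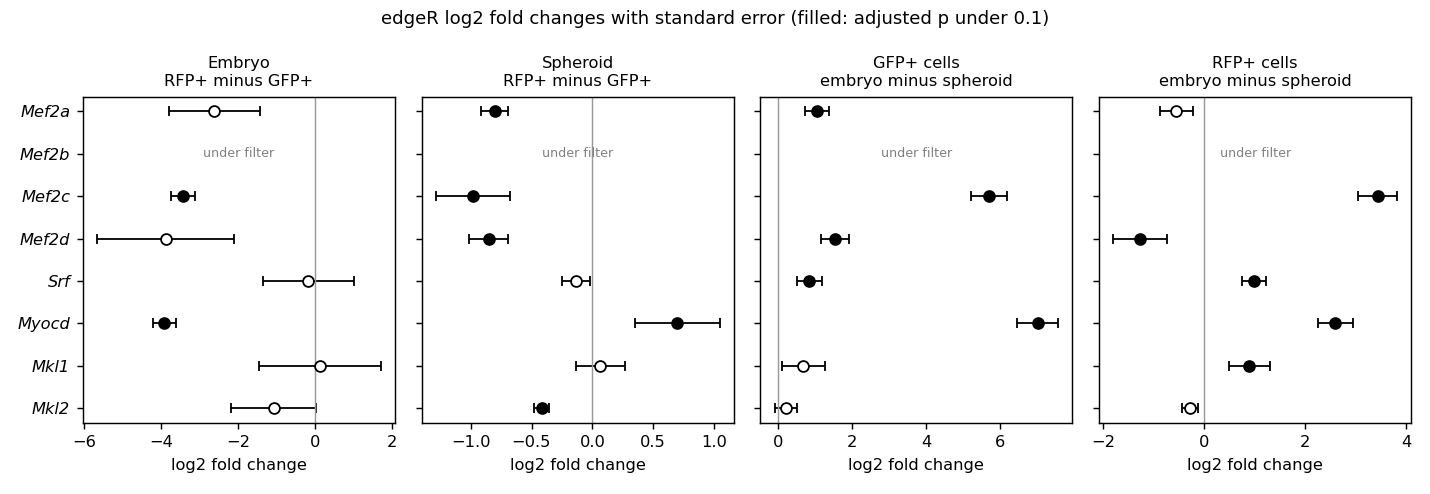
EdgeR log2 fold changes (horizontal axis) of the members in the 4 comparisons, with standard errors as bars and filled points for an adjusted p under 0.1. Mef2b was under the filter on low counts in all 4 panels. Myocd lies at -3.91 in embryos and at 0.70 in spheroids, and Mef2c and Myocd have the largest values in both embryo against spheroid panels.

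The change between populations was itself compared between embryo and spheroid. The log2 fold change of Myocd in embryos was lower than in spheroids by an amount of -4.61 (SE 0.46, adjusted p 0.0109), and that of Mef2c by -2.45 (SE 0.44, adjusted p 0.0400). Of 8182 genes tested, 5.26% were called in this test with 7 degrees of freedom (3.15% with a positive and 2.1% with a negative difference), and 2 of 7 members, both negative. The call of Mef2c was lost without embryo RFP+ library G11 (adjusted p 0.134) or H11 (adjusted p 0.109), while Myocd was called in 10 of 10 alternatives. For the other members tested the differences were between -3.03 (Mef2d) and 0.06 (Mkl1), none called.

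Mkl1 and Mkl2, whose products move to the nucleus when free actin runs low, did not pass the test between populations in embryos. Mkl2 was counted at 40.4, 156, 0, 192 and 145 CPM in the GFP+ libraries A12 to E12 and at 38.3, 70.4, 43.6 and 58.4 CPM in the RFP+ libraries F12, G11, G12 and H11 (-1.06, SE 1.11, edgeR adjusted p 0.806). Mkl1 was counted at 0, 35.3, 29.9, 4.18 and 0 CPM in the GFP+ libraries and at 3.68, 11.97, 35.02 and 12.97 CPM in the RFP+ libraries (0.13, SE 1.59, edgeR adjusted p 0.994). Values on both sides of the RFP+ range, among them libraries without a count, were seen in the GFP+ group for both genes.

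In spheroids Mkl2 was the most even member. Its lowest, median and highest values were 55.6, 78.9 and 121 CPM in the GFP+ wells other than C9, which stood at 148 CPM, and 39.6, 64.4 and 91.1 CPM in RFP+ wells, a small decrease in RFP+ wells (-0.42, SE 0.06, edgeR adjusted p 2.7e-09; permutation p = 2.0e-05). Mkl1 had medians of 7.77 CPM in GFP+ (range 0 to 19.1) and 7.59 CPM in RFP+ wells (range 0 to 20.99) and was not called (0.07, SE 0.20, edgeR adjusted p 0.777). Between embryo and spheroid, Mkl2 was not called in either population (0.21, SE 0.31, in GFP+ and -0.28, SE 0.15, in RFP+ cells), although in RFP+ cells the exact permutation p was 0.0372. Mkl1 was called higher in embryo RFP+ cells (0.90, SE 0.40, edgeR adjusted p 0.0712), but the exact permutation p was 0.0993 and the value fell to 0.17 (adjusted p 0.828) without library G12.

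Set per kilobase of exon, so that genes of different length can be ordered, Myocd and Mef2c led in embryo GFP+ cells at 139 ± 12.1 and 77.9 ± 26.6 CPM per kb (mean ± SD), far above Srf at 13.5 ± 15.8 CPM per kb. Srf (12.1 ± 5.51 CPM per kb), Myocd (9.55 ± 3.20), Mef2c (7.51 ± 1.80) and Mkl2 (5.86 ± 1.62) followed each other within their spread in embryo RFP+ cells. In spheroids Mkl2 and Srf were first in both populations, at 9.46 ± 2.20 and 6.38 ± 2.52 CPM per kb in GFP+ wells and at 7.18 ± 1.20 and 6.16 ± 1.93 CPM per kb in RFP+ wells. Mef2c and Myocd were below 2 CPM per kb there.

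Across the 4 groups the order of mean CPM was embryo GFP+, embryo RFP+, spheroid GFP+ and spheroid RFP+ for Mef2c. Neighbours in each order were compared by permutation of log2 CPM. The last neighbours of Mef2c did not differ in this test (permutation p = 0.376), although edgeR called Mef2c lower in spheroid RFP+ wells (adjusted p 0.00306). For Myocd the spheroid groups changed places and all 3 pairs of neighbours differed. For Srf only embryo RFP+ and spheroid GFP+ differed among the neighbours (exact permutation p = 0.00436), and for Mkl1 no neighbours did.

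The make-up of the Mef2 family differed between embryo and spheroid, and that of the myocardin family also between populations. Mef2c held 78.7% ± 11.9 of the Mef2 reads per kb in embryo GFP+ libraries (SD, n = 5) and 74.5% ± 7.60 in embryo RFP+ libraries (n = 4), a difference of -4.21 percentage points with an exact permutation p of 0.540. In spheroids it held 12.3% ± 14.3 in 37 GFP+ and 13.7% ± 10.6 in 46 RFP+ wells (permutation p = 0.624), where Mef2a held 48.4% and 49.9%, Mef2d 35.1% and 34.9% and Mef2b 4.20% and 1.44%. Of these, the share of Mef2b differed between the spheroid populations (-2.76 percentage points, permutation p = 0.00366). It rests on 40 counts of Mef2b in GFP+ and 8 in RFP+ wells, and was 0.539% and 0.204% of counts not divided by length. Embryo and spheroid shares of Mef2c differed in GFP+ cells (exact permutation p = 2.35e-06) and in RFP+ cells (exact permutation p = 8.68e-06). The summed Mef2 level was nevertheless different between the embryo populations, 99.0 ± 27.9 CPM per kb in GFP+ and 10.0 ± 1.85 in RFP+ libraries, and was 9.41 ± 2.23 and 5.28 ± 1.66 CPM per kb in the spheroid populations.

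Within the myocardin family, Myocd held 90.8% ± 6.02 of reads per kb in embryo GFP+ and 52.6% ± 14.8 in embryo RFP+ libraries (exact permutation p = 0.0159). In spheroids it held 6.61% ± 10.99 in GFP+ and 14.7% ± 8.01 in RFP+ wells (permutation p = 0.000200), and Mkl2 held 82.1% and 71.9%. In each embryo GFP+ library Myocd made up at least 83.6% of the family, and in the spheroid wells at most 57.3%. The shares were chosen for description after levels had been seen, and shares of counts without division by length gave the same calls in all 28 comparisons.

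**Figure D3:**
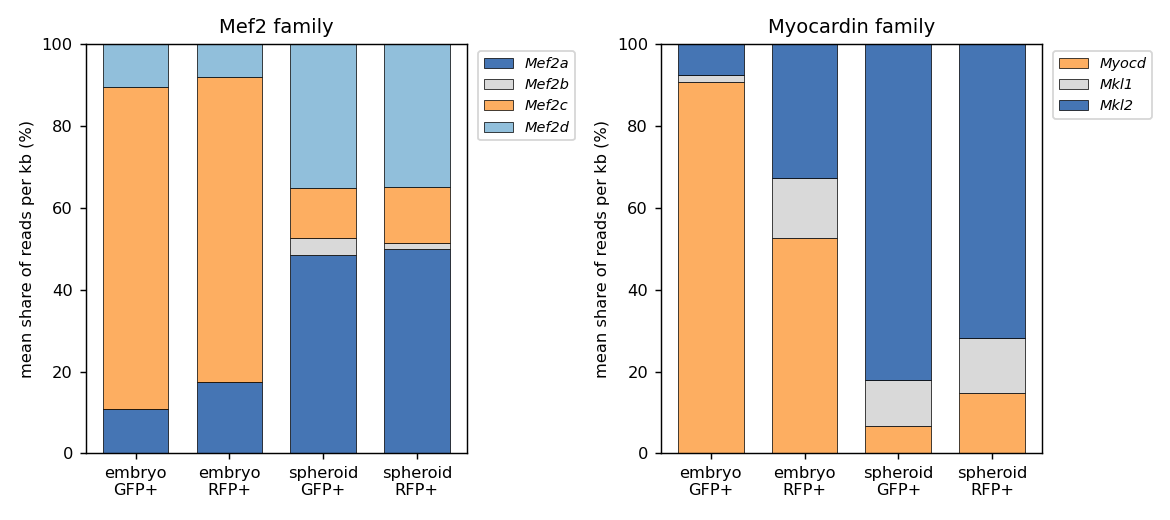
Mean share of each gene in the reads per kilobase of its family (vertical axis, percent) in the 4 groups, with the Mef2 family on the left and the myocardin family on the right, from 5, 4, 37 and 46 libraries. Mef2c falls from 78.7% and 74.5% in embryos to 12.3% and 13.7% in spheroids, and Mkl2 rises from 7.68% in embryo GFP+ to 82.1% in spheroid GFP+ libraries.

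Cardiomyocyte markers were highest in the same group as Mef2c and Myocd. The summed CPM of 8 of them (Tnnt2, Tnni1, Myh6, Myh7, Myl7, Actc1, Nkx2-5 and Ttn) was 16857 to 48901 in embryo GFP+ and 1122 to 2108 in embryo RFP+ libraries. In spheroids it was 15.9 to 1152 in GFP+ wells (median 52.0) and 14.1 to 134 in RFP+ wells (median 56.9), with similar medians. Of 4 tested in spheroids, Ttn (-3.31, SE 0.35), Tnni1 (-1.94, SE 0.28) and Myl7 (-1.44, SE 0.48) were called lower in RFP+ wells, as Mef2c was. Myocd was called higher there, and over all genes 40.1% were called lower and 37.8% higher. Smooth muscle markers (6 genes) summed to 3985 to 11590 CPM in embryo GFP+ and 515 to 1040 CPM in embryo RFP+ libraries. Acta2 alone had means of 6139 and 552 CPM there, while Smtn stood at 12.4 and 12.7 CPM and was not called. In spheroids the 6 genes summed to 12.6 to 397 CPM in GFP+ wells (median 65.5) and 8.04 to 58.9 CPM in RFP+ wells (median 26.3). The part of the cardiomyocyte and smooth muscle markers in the differences of Mef2c and Myocd was not tested.

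Endothelium, another place of Mef2c expression, gave a different pattern. Its 8 markers summed to 0 to 89.6 CPM in embryo GFP+ libraries, with Pecam1, Cdh5, Tie1 and Emcn at 0 counts, and to 66.6 to 386 CPM in embryo RFP+ libraries, with none at 0. The list was mixed, since Tek had a mean of 29.9 CPM in embryo GFP+ and 14.8 CPM in embryo RFP+ libraries (-1.09, SE 1.92, not called). In spheroids the 8 markers summed to 1.26 to 49.3 CPM in GFP+ and 3.42 to 150 CPM in RFP+ wells. The 5 skeletal muscle markers had no count in embryo GFP+ libraries and summed to at most 9.86 CPM elsewhere. Of 7 endoderm markers 6 and of 7 blood markers 4 had no count in embryo GFP+ libraries, and 5 neural markers summed to at most 9.76 CPM there. These libraries had few detected genes (6189 to 8302), and even Mef2a, with a mean of 152 CPM, had no count in 1 of them. A lack of counts there need not mean a lack of RNA, for markers and listed targets alike. Endoderm markers summed to at most 21.4 CPM in embryo GFP+ libraries against 48.8 to 222 CPM in spheroid GFP+ wells. The sum in those wells was mostly Epcam (mean of 122 CPM), while Foxa2 had a mean of 2.28 CPM. This list was mixed too, since Epcam was lower in spheroid RFP+ than GFP+ wells (-2.13, SE 0.13) and Foxa2 higher (1.88, SE 0.37). Neural markers summed to 20.5 to 79.3 CPM in spheroid GFP+ wells. The part of the endoderm and neural markers in the embryo against spheroid differences was not tested. One embryo RFP+ library, F12, held 1167 CPM of blood markers against at most 1.41 CPM in the other RFP+ libraries, and Mef2c and Myocd were called in embryos without it as well.

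Among spheroid GFP+ wells the cardiomyocyte sum fell into separate ranges, 397 to 1152 CPM in 7 wells and 15.9 to 96.3 CPM in 30. The 7 wells (G8, C7, H7, E8, B11, B9 and G10) lay in 5 plate columns, and Mef2c was counted there at 14.1, 33.6, 74.3, 76.0, 87.8, 74.4 and 124 CPM. Myocd was counted in the same wells at 11.4, 10.5, 19.2, 11.4, 66.8, 31.3 and 18.9 CPM. They included all 5 GFP+ wells above 50 CPM of Mef2c and all 7 GFP+ wells above 10 CPM of Myocd. Within the 7 wells the cardiomyocyte sum had r of 0.93 with Mef2c and 0.68 with Myocd. Within the other 30 wells r was 0.09 for Mef2c and 0.49 for Myocd, and in 46 RFP+ wells 0.26 and -0.07. These are descriptions over wells that differ in depth, with both measures taken from the same library.

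**Figure D4:**
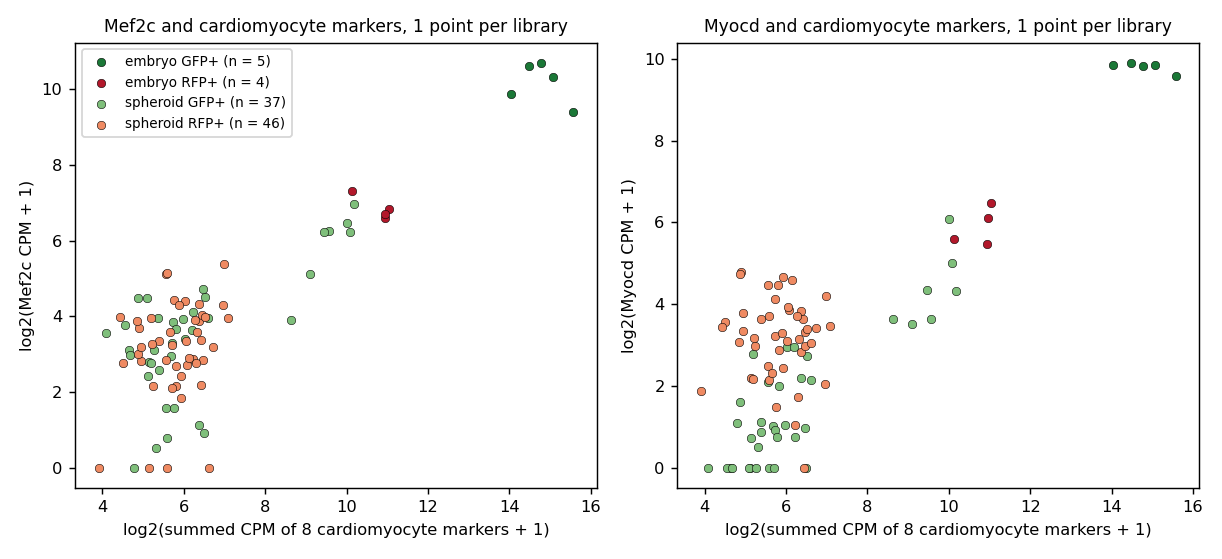
Mef2c (left) and Myocd (right), as log2(CPM + 1), against the summed CPM of 8 cardiomyocyte markers on the same scale, 1 point per library of at least 100000 counts. Embryo GFP+ libraries lie at the upper right with sums from 16857 CPM, and 7 of 37 spheroid GFP+ wells lie apart from the other spheroid wells with sums from 397 CPM.

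The genes most like Mef2c and Myocd over the 37 GFP+ wells, by r of log2 CPM, reflected this split. For Mef2c they were Myl7, Tnni1 and Myocd, and for Myocd they were Ttn, Myl7 and Tnni1, all sarcomere genes. Pooled values are not given for these, since the wells fall into 2 ranges. In the 30 wells of low cardiomyocyte sum, r was 0.08, 0.14 and 0.16 for the 3 genes of Mef2c and 0.55, 0.35 and 0.28 for those of Myocd, and in RFP+ wells it lay between -0.04 and 0.23. For the other members the 3 closest genes had r of 0.54 to 0.64 in GFP+ wells and -0.27 to 0.43 in RFP+ wells. Among them were Asxl1 for Mef2a, Ptprf for Mef2d, Slc30a1 for Srf, Pgbd5 for Mkl1 and Exosc10 for Mkl2. All were picked for the highest r in GFP+ wells among the genes tested in spheroids, and picking alone raises r there.

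Contractile and cytoskeletal targets of Srf and the myocardin family fell on balance in embryo RFP+ cells. Of 34 listed genes 29 were tested, 2 were higher and 13 lower in RFP+ cells (6.21% and 3.88% over all genes), with a median log2 fold change of -1.46 against 0.09 over all genes. Genes such as Lmod1 (means of 87.0 CPM in GFP+ and 5.65 CPM in RFP+ libraries) and Actg2 (46.2 and 6.79 CPM) could pass the filter through the GFP+ libraries. This favours the lower direction in the counts and the median. The largest decreases were in Ankrd1 (-5.31, SE 0.64), a cardiac ankyrin repeat protein, in Actc1 (-5.29, SE 0.36), cardiac actin, and in Acta1 (-4.55, SE 1.17), skeletal actin. The 2 called higher in RFP+ cells were the cytoplasmic actins Actg1 (0.87, SE 0.22) and Actb (0.59, SE 0.18), and both calls were lost with DESeq2 size factors (0.59 and 0.30, edgeR adjusted p 0.195 and 0.565). In spheroids 25 were tested, 4 were higher and 16 lower in RFP+ wells (median -0.39 against -0.02), beside 77.9% called over all genes. The lower genes were led by Acta1 (-4.95, SE 0.40), Des (-2.46, SE 0.22), which encodes desmin, and Acta2 (-2.44, SE 0.35), smooth muscle actin. Acta1 and Des had means of 2.84 and 4.53 CPM in spheroid RFP+ wells and could pass the filter through the GFP+ wells. Myl9 (0.78, SE 0.23), Tpm2 (0.60, SE 0.07) and the integrin gene Itga5 (0.53, SE 0.18) led upwards.

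The same list was higher in embryo than in spheroid cells. In GFP+ cells 21 of 30 were higher and 5 lower (median 1.82 against -0.67), where 19.7% and 48.3% of all genes were. In RFP+ cells 21 of 27 were higher and 0 lower (median 1.17 against -0.04), where 20.1% and 22.5% of all genes were. At an unadjusted p under 0.05, by DESeq2 and by limma voom 0 were lower as well. In RFP+ cells Ankrd1, Acta2 and Actc1 led (8.71, 5.74 and 4.44). Ankrd1 (mean 0.134 CPM) and Cnn1 (1.53 CPM) in spheroid RFP+ wells and Lmod1 (1.80 CPM) in spheroid GFP+ wells were barely counted. Such genes could pass the filter through the embryo libraries, where they were high, which favours this direction in the counts and medians. In GFP+ cells Ankrd1 was counted at 2610 ± 574 CPM in embryos and 0.547 ± 1.14 CPM in spheroids, whereas Tagln2 (-4.40, SE 0.42) and Actg1 (-1.18, SE 0.10) were lower in embryos and Filip1l had no count there.

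Early response targets of Srf, which are induced within minutes of a stimulus and so also by handling, moved little together. Of 9 listed, 3 were tested in embryos and edgeR called 0 (10.1% over all genes), also 0 at an unadjusted p under 0.05. DESeq2 called 2 of the list and limma voom 1. In spheroids 4 were tested, and edgeR called Fos lower in RFP+ wells (-2.02, SE 0.22) and Ier2 (0.98, SE 0.11) and Egr1 (0.41, SE 0.23, adjusted p 0.0900) higher. Over all genes 37.8% were higher and 40.1% lower there. Between embryo and spheroid, 1 of 6 was higher and 3 lower in GFP+ cells, where 19.7% and 48.3% of all genes were. Egr1 and Junb had no count in embryo GFP+ libraries. In RFP+ cells 2 of 5 were lower in embryos (Egr2 and Egr1), where 22.5% of all genes were.

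Mef2 muscle targets were mostly below the filter in spheroids, where 2 of 18 were tested. In embryos 10 passed the filter, and edgeR called 6 lower and 0 higher in RFP+ cells (3.88% and 6.21% over all genes). At an unadjusted p under 0.05 or by DESeq2 and limma voom 0 were higher. The genes named here were high in embryo GFP+ and low in embryo RFP+ libraries, so that passing the filter favoured this direction, and no median over the genes that passed is given. The largest decreases were in Myh6 (-7.20, SE 0.49; mean 750 CPM in GFP+ and 5.16 CPM in RFP+ libraries), the alpha myosin heavy chain, in Pgam2 (-6.19, SE 0.89), a muscle glycolytic enzyme, and in Klhl31 (-6.17, SE 1.40). In GFP+ cells 9 of 18 passed the filter and were called higher in embryos than in spheroids, where 19.7% of all genes were higher. They were again genes of low level in spheroids (means of 0.554 to 24.3 CPM), with Myh6 at 750 ± 212 against 0.554 ± 1.80 CPM. In RFP+ cells 3 of 4 were higher in embryos (20.1% over all genes). These were Smyd1 (4.09, SE 0.70), a muscle histone methyltransferase, Myl2 (3.50, SE 0.80) and Des (3.12, SE 0.44). Smyd1 and Myl2 had means of 1.63 and 0.986 CPM in spheroid RFP+ wells. They could pass the filter through the embryo libraries, which favours this direction. Several of these genes are also cardiomyocyte markers or are on the Srf list, so that the lists are not separate evidence.

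Regulators and partners of Mef2 were all tested, 15 of 15, and 0 were called in embryos by edgeR, at an unadjusted p under 0.05, by DESeq2 or by limma voom (median -0.0030 against 0.09). EdgeR called 10.1% of all genes there. In spheroids 6 were higher and 8 lower in RFP+ wells (median -0.22 against -0.02), beside 37.8% and 40.1% of all genes. Prkd1 (1.27, SE 0.17), a kinase that exports class II deacetylases, Carm1 (1.10, SE 0.13), a coactivator methyltransferase, and the deacetylase Hdac7 (0.91, SE 0.18) were higher. The kinase genes Camk2d (-2.25, SE 0.10) and Sik1 (-1.51, SE 0.16) and the deacetylase Hdac5 (-0.88, SE 0.18) were lower. Camk2d was also lower in embryo than in spheroid GFP+ cells (-1.76, SE 0.29), where 1 gene was higher and 4 lower by edgeR but 5 higher and 1 lower by DESeq2. Over all genes 19.7% were higher and 48.3% lower there by edgeR. Hdac4 was lower in embryo than in spheroid RFP+ cells (-1.08, SE 0.26).

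Partners of Srf included Gata4, a cardiac zinc finger factor, and Fhl2, a LIM-domain cofactor, which were lower in embryo RFP+ cells (-4.49, SE 1.43, and -2.47, SE 0.75). Of 9 partners 6 were tested and these 2 called, beside 10.1% of all genes. Gata4, at a mean of 6.38 CPM in embryo RFP+ libraries, could pass the filter through the GFP+ libraries, which favours this direction. In spheroids Fhl2 (-0.94, SE 0.18) and Tead1 (-0.40, SE 0.06) were lower in RFP+ wells. Hopx (1.11, SE 0.23), a homeodomain-only protein that restrains Srf, and Elk3 (0.65, SE 0.22) were higher there. Those were the 4 tested, and 77.9% of all genes were called. Gata4 (4.07, SE 0.36), Smarcd3 (3.90, SE 0.51) and Fhl2 (2.51, SE 0.29) led the 5 of 8 partners that were higher in embryo than in spheroid GFP+ cells. Over all genes 19.7% were higher there. Gata4 and Smarcd3 had means of 7.02 and 2.99 CPM in spheroid GFP+ wells. They could pass the filter through the embryo libraries, which favours this direction.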

How the data were processed

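The deposited values are raw counts per gene. The authors had used Trimmomatic 0.36 (quality of at least 35, length of at least 36), HISAT2 2.0.4 on the mm10 assembly, and featureCounts 1.5.2. Reads carry no molecular identifiers. Of the 24514 symbols, 98.35% were found in GENCODE M21 (GRCm38), which gave coordinates and exon lengths. The members and gene lists were chosen with earlier results of these data known. A further gene list is not reported here.

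Each comparison was fitted on its 2 groups in R 4.3.3 with edgeR 4.0.16 (TMM, filterByExpr with minimum count 10, quasi-likelihood F-test), with Benjamini-Hochberg adjustment over all genes tested and a threshold of 0.1, without covariates. The difference of 2 fold changes was divided by its own standard error. Members were also tested by two-sided permutation of log2 CPM with a prior count of 2, exact where a group had under 10 libraries and with 100000 resamples in spheroids. Genes named are the members, up to 3 called genes per list and direction, and the 3 genes most like each member. The fits were also run on simulated counts, and the outcome is not reported here. Alternatives used DESeq2 1.42.0, limma 3.58.1, other size factors, no filter, and each embryo library left out.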

Additional observations from a re-analysis of the deposited data

Results flagged for a closer look

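In embryo GFP+ cells, library A12 stood apart in Srf, at 118 CPM against 5.66 to 31.8 CPM in the other 4 libraries. Library B12 stood apart in Myocd, at 757 CPM against 912 to 953 CPM. By Dixon's criterion chance flags about 1 in 20 such groups, and 2 of 14 were flagged. The change between GFP+ and RFP+ cells differed between embryo and spheroid for Mef2c (a difference of -2.45 in log2 fold change, edgeR values, adjusted p 0.0400) and for Myocd (-4.61, adjusted p 0.0109). For Myocd the fitted direction was opposite in the 2 sources.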

How the results depend on the processing

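Of 406 recomputed log2 fold changes of members, 358 kept direction and side of the threshold, 13 lost and 11 gained a call with the same sign, and 24 changed sign, 0 of them called in the alternative. For 4 of the 24 the main value was called, all for GFP+ cells of embryo against spheroid: with limma voom Mef2a (-0.30), Mef2d (-0.88) and Srf (-0.011), and Srf when embryo libraries were left out in turn (-0.070 to 1.12, lowest without A12). The other 20 had no call. With limma voom these were Mkl1 (-0.37) and Mkl2 (-0.61) in GFP+ cells and Srf between embryo populations (0.65), and for Mkl1 between embryo populations DESeq2 gave -0.0099 and its size factors -0.075. With embryo libraries left out in turn, values ran from -0.58 to 0.85 for Mkl1 and -0.46 to 0.79 for Srf between embryo populations, -0.059 to 1.04 for Mkl1 and -0.13 to 0.56 for Mkl2 in GFP+ cells, and -0.65 to 0.78 for Mkl1 and -0.33 to 0.92 for Srf in the difference between sources. The cause was not tested. Of 31 permutation tests with a prior count of 0.5, 30 kept sign and side, and Mef2a in GFP+ cells, not called, turned to -0.28. The share of Mef2a in spheroids, not called, was -1.06 percentage points from counts not divided by length.

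Counts of genes called moved more. In embryos 858 became 1936 with DESeq2, 2000 without a filter and 2271 with limma voom, and the split of 528 higher and 330 lower in RFP+ cells became 415 and 449 with DESeq2 size factors. In spheroids 7747 became 13109 without a filter, which tests more genes. With limma voom 8036 became 2291 in GFP+ and 4745 became 2125 in RFP+ cells. For the difference between sources, 430 became 6889 with 1 fit over all groups, 247 at an adjusted p under 0.05 and 72 to 556 with each embryo library left out (72 without G11, 157 without H11, 221 without F12). The median of all genes in GFP+ cells was -0.67, and -0.52 with DESeq2 size factors. No paired analysis was possible because the labels give wells and no replicate numbers shared between groups. Embryo groups of 5 and 4 libraries with zeros limit the precision of Mef2a, Mef2d, Mkl1 and Mkl2.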
